A study of Mus musculus with 6 samples.

Results

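The nuclear genes of the mitochondrial respiratory chain were taken from the deposited count table by name, as the known genes whose symbols mark a subunit of complex I (Nduf with a letter and a number), complex II (Sdha to Sdhd), complex III (Uqcr genes and Cyc1), complex IV (Cox4 to Cox8 genes), complex V (Atp5 genes) or cytochrome c (Cycs). This gave 87 of the 38207 genes and loci in the table, or of its 22036 known genes, under 86 symbols, since Atp5o stands on 2 Ensembl IDs. Complex I holds 37 of them, complex II 4, complex III 9, complex IV 18 and complex V 18. The choice used names and no measured value, but it was made with earlier results of these data known. It counts Ndufa4 with complex I by symbol, although its protein is now assigned to complex IV, and it counts Cox7a2l, a factor that joins complexes III and IV, with complex IV.

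The respiratory chain sits in the inner mitochondrial membrane. Complexes I and II pass electrons from NADH and succinate to ubiquinone, complex III passes them to cytochrome c and complex IV to oxygen, and complexes I, III and IV pump protons whose return drives ATP synthesis by complex V. All complexes except II are built from subunits of both the nuclear and the mitochondrial genome. Microglia, the resident macrophages of the brain, are known to draw on oxidative phosphorylation at rest and to shift toward glycolysis when activated by inflammatory stimuli.

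The libraries were nanopore cDNA of microglia from the brains of wild-type mice, with 3 libraries from sham-operated mice and 3 from mice subjected to tMCAO. This abbreviation usually stands for transient occlusion of the middle cerebral artery, a model of ischemic stroke with reperfusion. Each library pooled 30 mice, so animals of a pool cannot be told apart. The sources used here give neither age and sex nor the time after surgery or the means of cell isolation. Library totals were 1855495 to 2614512 counts. Levels are given as CPM (counts scaled to a common library total), and a single count was worth 0.38 to 0.54 CPM. The 9 defining microglial markers summed to 26342, 26984 and 26919 CPM in sham 1 to 3 and to 26577, 23453 and 24570 CPM in tMCAO 1 to 3, with every marker detected. On the second principal component of all tested genes (19.8% of the variance), tMCAO 3 and sham 1 stood apart at 50.6 and 18.0, against -31.4 to -4.69 for the other libraries, and results that rest on them are given with and without them. Summed choroid plexus markers differed widely between pools, at 13946, 44619 and 8627 CPM in sham and 2271, 4038 and 9960 CPM in tMCAO.

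Across the respiratory chain, most nuclear subunit genes had a slightly lower level after tMCAO, and few differed beyond the spread between pools. Of the 82 members with enough counts to test, 4 fell (Ndufa10, Ndufa8, Uqcrh and Cox7a2l) and 1 rose (Cox6a2) at a Benjamini-Hochberg adjusted p under 0.05 in edgeR's quasi-likelihood test over 13127 genes and loci, which is 6.10% of members against 18.1% of all genes and loci tested. For falls alone the background was 8.96%, and for rises alone 9.17%. Among the tested known genes, the class to which all members belong, 17.1% were called, 5.72% as lower and 11.4% as higher. At an unadjusted p under 0.05, 19 members were lower and 3 higher. The log2 fold change was negative for 71 of the 82 (86.6%), against 49.98% of all tested genes and loci and 43.0% of tested known genes. Its median was -0.25 over the members and 0.00 over all tested genes, with a median standard error (SE) of 0.19 per member. The members share libraries and scaling, so their common sign is a description and carries no test.

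**Figure D1:**
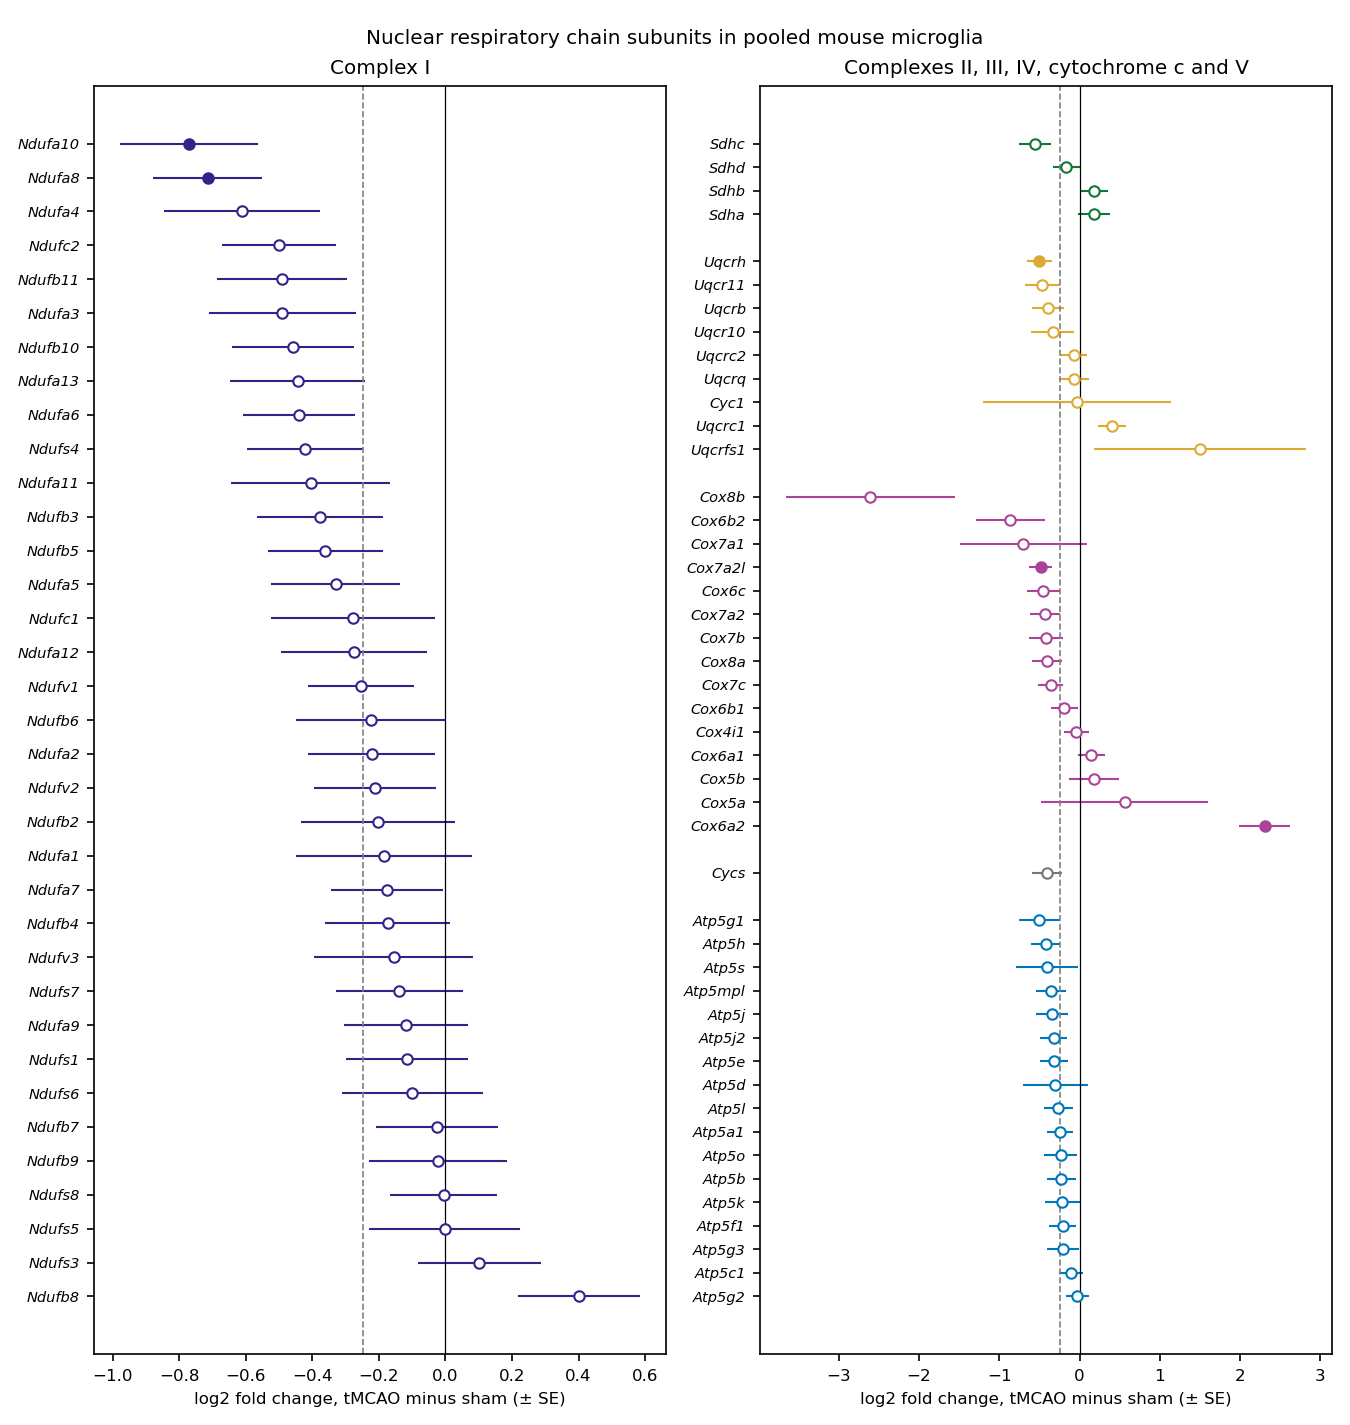
Log2 fold change (tMCAO minus sham, with its SE) of the tested members, with 1 gene not shown, grouped by complex, with complex I on the left and the others on a wider axis on the right. Filled points passed edgeR's test, and the dashed line marks the members' median of -0.25. Most points lie left of 0, and Cox8b and Cox6a2 lie farthest out at -2.60 and 2.31.

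The size of this shift depended on the scaling and on the pools, and the members' median was negative in each case given here. Fold changes were computed with trimmed-mean (TMM) factors. With library totals alone the median of all tested genes moved to 0.11 and that of the members to -0.13, with 60 of 82 negative and 1 member lower. Without sham 2 the members' median was -0.11, with 57 negative and 1 called lower. Without tMCAO 3 it was -0.40, and 13 members were called lower. In bulk pools, less RNA of these genes per cell and fewer cells rich in them cannot be told apart.

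Complex I, which oxidizes NADH, had 2 of its 36 tested subunits lower and none higher, both of them accessory subunits. Ndufa8 (ENSMUSG00000026895), an accessory subunit with twin cysteine motifs on the intermembrane side, had 199, 193 and 164 CPM in sham 1 to 3 and 137, 112 and 119 CPM in tMCAO 1 to 3. Every tMCAO pool lay below every sham pool. The fall was -0.71 ± 0.16 on the log2 scale (edgeR adjusted p = 0.00964).

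Ndufa10 (ENSMUSG00000026260), an accessory subunit on the matrix face of the membrane arm, had 150, 174 and 184 CPM in sham and 147, 102 and 75.6 CPM in tMCAO. The groups did not overlap, but tMCAO 1 was close to sham 1. The fall was -0.77 ± 0.21 (edgeR adjusted p = 0.0211). Its call was lost without sham 2, sham 3 or tMCAO 2 and with library totals (adjusted p 0.0583 to 0.0851, against 0.00191 to 0.0851 over all alternatives), and that of Ndufa8 without sham 1 (0.0536, against 0.00402 to 0.0536).

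Among the other complex I genes, the 7 core subunits, which carry the flavin, the iron-sulfur clusters and the quinone site, had a median log2 fold change of -0.12, with 0 called and 5 negative. The 29 tested accessory subunits had a median of -0.28, with 28 negative. Summed core subunits held 711 ± 23.3 CPM in sham and 726 ± 71.9 CPM in tMCAO (SD, n = 3), and summed accessory subunits 6119 ± 886 and 5261 ± 839 CPM, with the groups overlapping for both sums. The difference between core and accessory subunits was not tested.

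Ndufb8, a subunit of the membrane arm, had the largest positive value of complex I (0.40 ± 0.18). Its levels were 74.2, 85.2 and 79.2 CPM in sham and 118, 94.3 and 129 CPM in tMCAO. Every tMCAO pool lay above every sham pool, and the gene did not pass edgeR's test (adjusted p = 0.150). Ndufa2, a subunit of the matrix arm and the complex I gene with the most counts, had 512, 541 and 440 CPM in sham and 395, 412 and 576 CPM in tMCAO, and its groups overlapped.

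Non-overlap of this kind was not more frequent among the members than elsewhere. In 8 of the 82 every tMCAO pool lay below every sham pool (background 14.6% of all tested genes and loci and 10.6% of known genes), and in 5 every tMCAO pool lay above (23.3% and 28.8%). Besides the called genes, the 8 were Ndufc2, Ndufa6, Ndufs4 and Ndufv1, all of complex I, and the 5 included Ndufb8, Sdhb and Uqcrc1.

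Complex II, succinate dehydrogenase, is the only complex with no subunit from the mitochondrial genome and is shared with the citric acid cycle. None of its 4 genes passed the test, and their median was 0.01 (0.11 with library totals and -0.062 with upper-quartile factors). Sdha, the flavoprotein that oxidizes succinate, had 134, 148 and 110 CPM in sham and 142, 146 and 194 CPM in tMCAO (0.18 ± 0.20). Sdhb, the iron-sulfur subunit, had 182, 193 and 168 CPM in sham and 207, 197 and 260 CPM in tMCAO (0.18 ± 0.18, edgeR adjusted p = 0.530). The tMCAO pools lay above the sham pools for Sdhb and overlapped them for Sdha, and tMCAO 3 was the highest of all libraries for both.

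The membrane anchor gene Sdhc had 66.6, 85.2 and 83.8 CPM in sham and 59.1, 46.9 and 67.6 CPM in tMCAO (-0.56 ± 0.20, edgeR adjusted p = 0.0754). The other anchor, Sdhd, had 127, 132 and 117 CPM and 115, 117 and 132 CPM (-0.16 ± 0.16). Sdhc was thus on the negative side while the catalytic subunits were not. It was called lower without tMCAO 3 (edgeR adjusted p = 0.0304, against 0.0227 to 0.263 over its alternatives). Upper-quartile factors, testing known genes only and leaving out both sham 1 and tMCAO 3 also gave this call. Without tMCAO 3 the log2 fold change of Sdha was -0.0012. As a share of all member counts, complex II held 2.67%, 2.44% and 2.75% in sham and 2.91%, 3.21% and 3.33% in tMCAO. That share did not overlap between the groups. Nor did that of Cycs, with 0.697%, 0.701% and 0.703% in sham and 0.595%, 0.646% and 0.665% in tMCAO. The shares of complexes I, III, IV and V overlapped. Shares of a whole are not independent of each other, and a difference was not tested.

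Complex III, the cytochrome bc1 complex, had 1 of its 9 genes lower and none higher, with a median of -0.07 that ran from -0.43 without sham 1 to 0.04 with library totals. Uqcrh (ENSMUSG00000063882), the hinge protein beside cytochrome c1 and the complex III gene with the most counts, had 338, 376 and 334 CPM in sham and 267, 250 and 288 CPM in tMCAO. The groups stood clear of each other. The fall was -0.50 ± 0.16 (edgeR adjusted p = 0.0409). Leaving out any library other than tMCAO 3 ended the call, as did DESeq2, library totals and dropping the filter on low counts (adjusted p 0.0183 to 0.145 over all alternatives).

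Uqcrc1, a core subunit that faces the matrix, had 74.6, 76.1 and 76.1 CPM in sham and 131, 91.6 and 103 CPM in tMCAO (0.40 ± 0.18, edgeR adjusted p = 0.131). Sham pools were nearly equal for it and every tMCAO pool was higher, yet it did not pass. Uqcr11, a small accessory subunit, had 179, 253 and 179 CPM in sham and 156, 128 and 197 CPM in tMCAO (-0.46 ± 0.22, adjusted p = 0.171). With libraries left out its log2 fold change ran from -0.80 to -0.24, the latter without sham 2 (edgeR adjusted p = 0.511). It was called lower without tMCAO 3 (0.0468) and without both sham 1 and tMCAO 3, against 0.0399 to 0.511 over its alternatives.

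**Figure D2:**
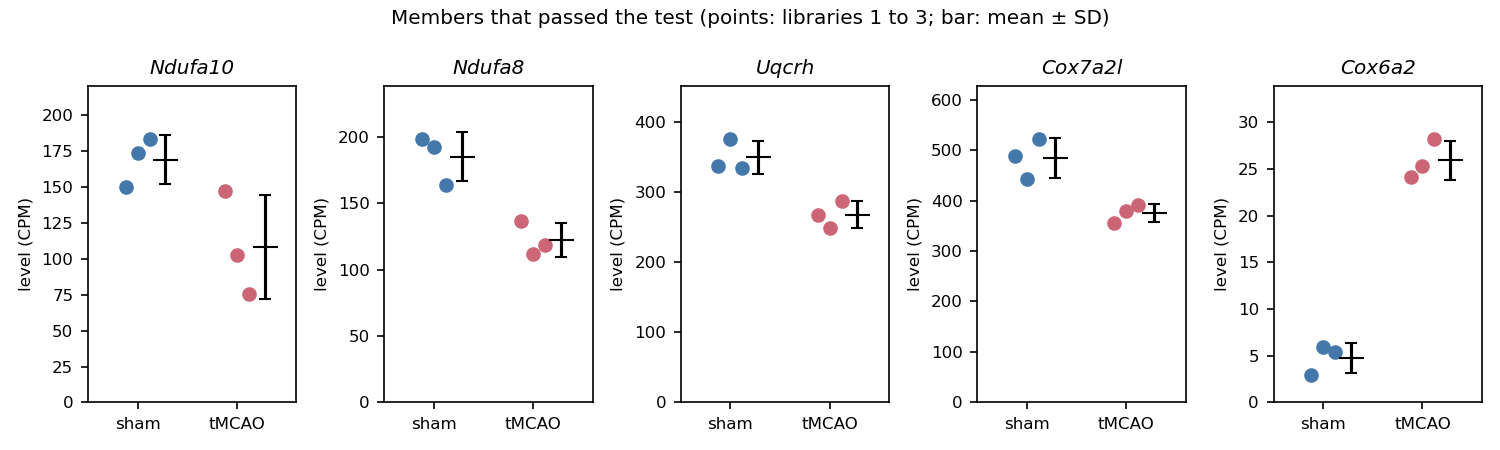
Level in CPM of the 5 members that passed edgeR's test, with a point for each library and the mean ± SD of 3 libraries per group beside them. Ndufa10, Ndufa8, Uqcrh and Cox7a2l were lower in every tMCAO library than in any sham library, and Cox6a2 went from at most 5.95 CPM in sham to at least 24.1 CPM in tMCAO.

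Complex IV, cytochrome c oxidase, had 1 gene lower and 1 higher among 15 tested, and a median of -0.40. Cox7a2l (ENSMUSG00000024248), whose product tethers complexes III and IV in supercomplexes, had 488, 442 and 522 CPM in sham and 355, 378 and 391 CPM in tMCAO. All tMCAO pools were below the sham pools. The fall was -0.48 ± 0.14 (edgeR adjusted p = 0.0322). As for Uqcrh, the call was lost when any library other than tMCAO 3 was left out and with DESeq2, library totals or no filter on low counts (adjusted p 0.0146 to 0.136 over all alternatives).

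Cox6a2 (ENSMUSG00000030785), the isoform of subunit VIa known from heart and skeletal muscle, was the 1 member that rose. It had 2.95, 5.95 and 5.35 CPM in sham (7, 15 and 14 counts) and 24.1, 25.3 and 28.2 CPM in tMCAO (49, 47 and 53 counts). The pools of each group lay close together and far from those of the other. Its mean went from 4.75 ± 1.59 to 25.9 ± 2.10 CPM, a rise of 2.31 ± 0.32 on the log2 scale (edgeR adjusted p = 0.000384). The rise was called under every alternative in which the gene was tested, with adjusted p from 1.54e-10 to 0.00528 and log2 fold changes from 1.94 to 2.52.

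Cox6a1, the isoform of most other tissues, had 178, 207 and 176 CPM in sham and 227, 195 and 253 CPM in tMCAO (0.15 ± 0.17), and its groups overlapped. To show how far the isoforms can be told apart, the ends of their coding sequences (GENCODE M21) up to the stop codon, bases 104 to 294 of Cox6a2 and 143 to 339 of Cox6a1, are printed with the bases that are identical in their alignment in capitals. Over the whole coding sequences they share 193 of 290 aligned bases (66.6%), and the longest run of identical bases is 12.
Cox6a2: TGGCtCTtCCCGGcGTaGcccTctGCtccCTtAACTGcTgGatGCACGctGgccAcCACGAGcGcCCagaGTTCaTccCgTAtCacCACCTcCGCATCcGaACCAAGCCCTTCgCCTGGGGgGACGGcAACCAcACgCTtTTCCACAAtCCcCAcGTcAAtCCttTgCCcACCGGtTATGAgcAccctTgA
Cox6a1: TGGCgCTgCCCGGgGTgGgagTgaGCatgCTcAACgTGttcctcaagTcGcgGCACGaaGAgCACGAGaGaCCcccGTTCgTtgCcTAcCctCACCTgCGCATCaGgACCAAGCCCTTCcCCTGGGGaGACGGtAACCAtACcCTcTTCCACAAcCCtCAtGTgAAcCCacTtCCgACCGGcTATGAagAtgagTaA
Cox6a2 overlaps Itgad, an integrin gene of the opposite strand, on chromosome 7 in GENCODE M21. The sources used here do not say whether counting used the strand. Itgad had 0, 0 and 0 counts in sham and 1, 3 and 0 in tMCAO. The neighbouring integrin genes were Itgax, with 3, 3 and 6 counts in sham and 14, 10 and 7 in tMCAO (not tested), and Itgam, with a log2 fold change of -0.28 ± 0.16.

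The other tested tissue-restricted isoforms of complex IV did not pass the test. Cox8b, the heart and skeletal muscle isoform of subunit VIII, had 14.3, 51.1 and 7.65 CPM in sham and 2.46, 2.16 and 8.52 CPM in tMCAO (-2.60 ± 1.05, edgeR adjusted p = 0.163). Without sham 2 its log2 fold change was -1.40, and with other libraries left out it reached -3.84. Its order in both sham and tMCAO put sham 2 and tMCAO 3 highest, as for the summed choroid plexus markers given above, and its lowest sham pool was below its highest tMCAO pool. Cox7a1 had 5.48, 18.2 and 2.68 CPM in sham and 5.42, 2.69 and 9.59 CPM in tMCAO, and Cox6b2, a testis isoform, 6.75, 13.1 and 5.35 CPM and 5.91, 4.31 and 4.79 CPM. The part of choroid plexus RNA in these values was not tested. Cox6a2 was also highest in sham 2 and in tMCAO 3 of their groups, while its sham 1 was its lowest pool.

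**Figure D3:**
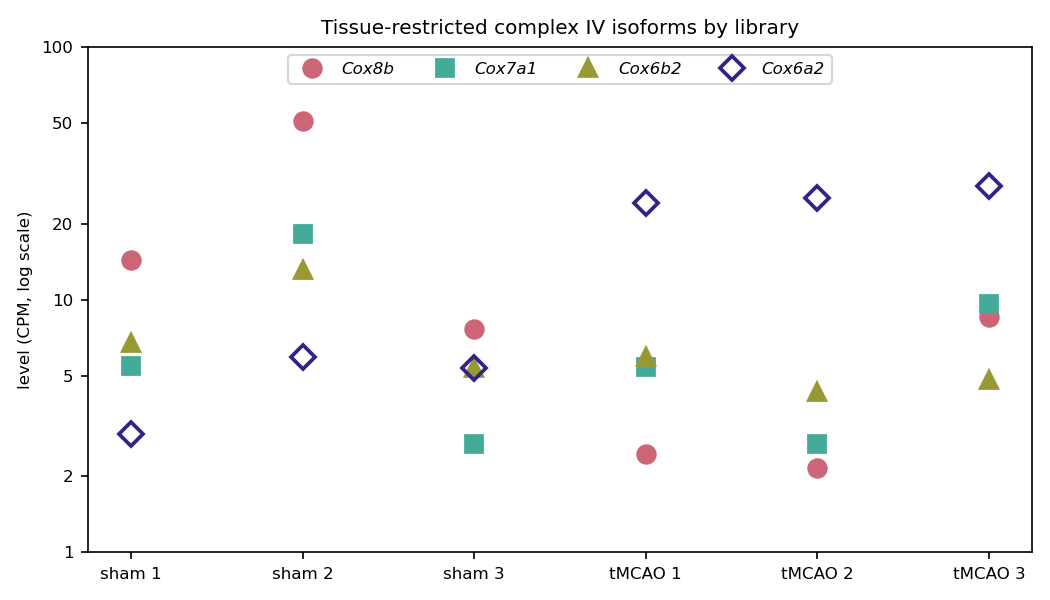
Level in CPM (log axis) of 4 tissue-restricted complex IV isoforms in each library. Cox8b, Cox7a1 and Cox6b2 were highest in sham 2, while Cox6a2 lay between 24.1 and 28.2 CPM in the tMCAO libraries, above its 2.95 to 5.95 CPM in sham.

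Cox7c, the complex IV member with the most counts, had a log2 fold change of -0.36 ± 0.15 (edgeR adjusted p = 0.123). The genes linked to hypoxia were almost undetected. Cox4i2, an isoform of subunit IV induced by low oxygen, had 0, 1 and 1 counts in sham and 0, 3 and 4 in tMCAO, and Ndufa4l2, a hypoxia-induced relative of Ndufa4, had 1 count in all, in tMCAO 1. Neither could be tested at this depth. Cox7b2 and Cox8c, both known from testis, and the second Atp5o ID (ENSMUSG00000116933) had no count in any library.

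Complex V, the ATP synthase, showed the most even picture: all 17 tested genes had negative values, from -0.50 to -0.03, and none passed the test. The median was -0.26 over the complex, -0.24 for the catalytic F1 part, -0.20 for the c ring, -0.29 for the peripheral stalk and -0.29 for the membrane accessory subunits. Atp5s (-0.41 ± 0.39), counted with complex V by its symbol, was placed in none of these parts. The groups overlapped for every one of the 17 genes. Atp5h, subunit d of the peripheral stalk, had 429, 491 and 381 CPM in sham and 359, 292 and 400 CPM in tMCAO (-0.42 ± 0.18, edgeR adjusted p = 0.120). It was the 1 complex V gene with an unadjusted p under 0.05.

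Atp5g1, which encodes subunit c of the rotor ring, had 286, 428 and 241 CPM in sham and 247, 196 and 292 CPM in tMCAO (-0.50 ± 0.26). Atp5l, subunit g of the membrane part and the gene with the most counts in complex V, had 507, 616 and 454 CPM in sham and 455, 422 and 548 CPM in tMCAO (-0.26 ± 0.18). In both, sham 2 was the highest of all libraries and tMCAO 2 the lowest. Cycs, the mobile carrier cytochrome c, had 133, 160 and 122 CPM in sham and 107, 102 and 130 CPM in tMCAO (-0.41 ± 0.19, edgeR adjusted p = 0.152), again with sham 2 highest and tMCAO 2 lowest.

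This library order was frequent among the members. Sham 2 was the highest of all 6 libraries for 53 of the 82 tested members (64.6%), against 11.1% of tested known genes, and tMCAO 2 was the lowest for 44 (53.7%), against 15.1%. Within tMCAO, tMCAO 3 was the highest for 62 members (75.6%), against 31.4%. Summed over all members, levels were 19060, 22837 and 17404 CPM in sham and 17968, 15778 and 19608 CPM in tMCAO, so the groups overlapped.

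The sums by complex overlapped between the groups as well. Complex I went from 6830 ± 908 to 5987 ± 910 CPM, complex III from 1553 ± 251 to 1436 ± 140, complex IV from 5611 ± 854 to 5051 ± 370 and complex V from 5119 ± 718 to 4637 ± 468. Complex II had 515 ± 40.1 and 561 ± 80.6 CPM. In sham, the order of the pools in every complex, with sham 2 highest and sham 3 lowest, was also that of the summed markers of choroid plexus, of astrocytes (286, 423 and 142 CPM), of oligodendrocytes (418, 1039 and 187 CPM) and of erythroid cells (2864, 6040 and 955 CPM). The neuron, pericyte and monocyte sums had this sham order too, and the endothelial, neutrophil, border-associated macrophage and microglial sums did not. In tMCAO the erythroid sums (301, 215 and 380 CPM) were lowest in tMCAO 2 and highest in tMCAO 3, as the subunit sums were. The choroid plexus sums were lowest in tMCAO 1, and the astrocyte (69.4, 93.2 and 76.7 CPM) and oligodendrocyte sums (152, 344 and 146 CPM) were highest in tMCAO 2, where the subunit sums were lowest. The astrocyte, neuron and erythroid sums were lower in every tMCAO pool than in any sham pool. Astrocyte means were 284 ± 141 and 79.8 ± 12.2 CPM. Border-associated macrophage sums were higher in every tMCAO pool, with means of 185 ± 26.1 in sham and 319 ± 46.2 CPM in tMCAO. Of the 6 markers in that sum 3 were called higher (F13a1, Mrc1 and Cd163) and 3 were not called, with Cbr2 at -0.68 ± 0.26. Neutrophil sums overlapped, with means of 1951 ± 279 in sham and 1055 ± 702 CPM in tMCAO. Of 4 tested monocyte markers 2 were called higher (Ccr2 and Plac8), while the monocyte sums overlapped. The part of these cells in the subunit levels was not tested.

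**Figure D4:**
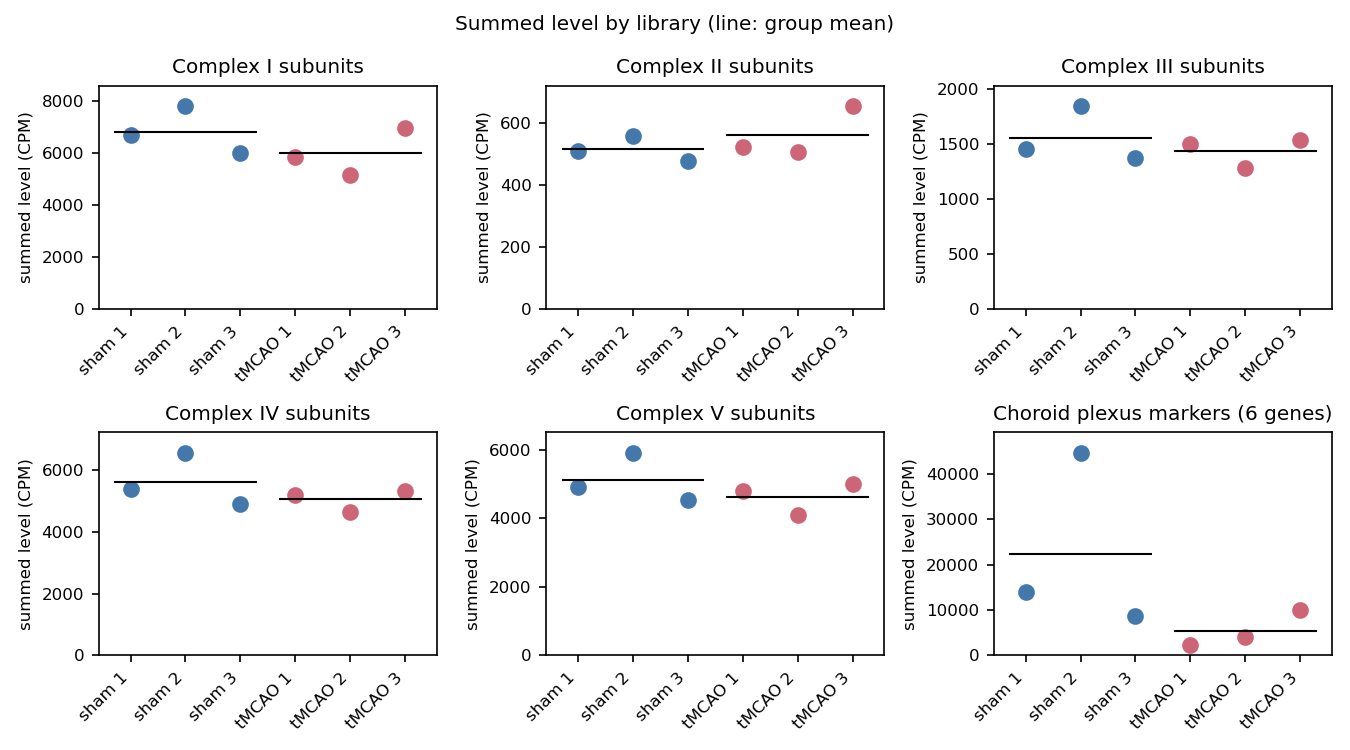
Summed level in CPM of the subunits of each complex and of 6 choroid plexus markers, with a point for each library and a line for the group mean. In every complex the sham and tMCAO points overlap, and sham 2 is the highest sham library in each panel.

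A few members of complexes III and IV varied more between pools of the same group than between groups, and for these no difference could be detected. Cyc1, cytochrome c1, had 10.5, 50.3 and 38.6 CPM in sham and 57.6, 50.1 and 1.07 CPM in tMCAO (-0.03 ± 1.17). Uqcrfs1, the Rieske iron-sulfur protein that hands electrons to cytochrome c1, had 3.37, 32.5 and 9.56 CPM in sham and 78.3, 64.7 and 2.66 CPM in tMCAO (1.50 ± 1.32). Cox5a, a matrix-side subunit of complex IV, had 16.4, 108 and 62.7 CPM in sham and 153, 140 and 18.1 CPM in tMCAO (0.56 ± 1.04). In each of them sham 1 and tMCAO 3 were low in their group, by a factor of more than 2 against the next library.

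Such low values in both sham 1 and tMCAO 3 were found in these 3 of the 82 tested members (3.66%) and in 2.22% of tested known genes. Atp5d, the delta subunit of the F1 central stalk, and Cox5b, another matrix-side subunit of complex IV, followed the same order more mildly, with 139, 306 and 174 CPM and 251, 198 and 108 CPM for Atp5d and a log2 fold change of 0.18 ± 0.32 for Cox5b. Without sham 1 and tMCAO 3 the log2 fold change of Cyc1 was 0.09, of Uqcrfs1 1.57 and of Cox5a 0.58, and none of the 3 was called. With libraries left out, alone or together, the values ran from 0.99 to 2.76 for Uqcrfs1 and from 0.09 to 1.26 for Cox5a.

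The 3 genes are among the members with the most G+C-rich stretch of coding sequence, a feature looked at after their values were seen. The richest 100 coding bases of each, from GENCODE M21, are printed with G and C in capitals, beside those of Cox6a1, which is as rich and was not low, and of Uqcrh, which is not rich.
Uqcrfs1 (81% G+C): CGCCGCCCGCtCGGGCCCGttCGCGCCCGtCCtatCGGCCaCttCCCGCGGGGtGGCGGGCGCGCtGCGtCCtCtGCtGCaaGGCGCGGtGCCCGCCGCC
Cyc1 (79% G+C): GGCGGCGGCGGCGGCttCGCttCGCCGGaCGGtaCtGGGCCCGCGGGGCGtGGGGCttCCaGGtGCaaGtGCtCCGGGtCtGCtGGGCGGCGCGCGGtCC
Cox5a (77% G+C): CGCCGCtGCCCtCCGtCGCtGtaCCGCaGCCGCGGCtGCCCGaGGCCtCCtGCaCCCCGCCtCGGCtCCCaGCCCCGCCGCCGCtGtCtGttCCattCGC
Cox6a1 (77% G+C): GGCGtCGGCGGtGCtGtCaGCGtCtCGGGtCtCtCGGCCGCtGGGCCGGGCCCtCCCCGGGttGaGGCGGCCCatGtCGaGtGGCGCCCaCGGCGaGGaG
Uqcrh (54% G+C): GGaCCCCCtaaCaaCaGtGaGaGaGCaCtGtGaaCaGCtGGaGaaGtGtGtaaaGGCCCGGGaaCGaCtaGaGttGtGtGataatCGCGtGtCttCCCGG
Of the 5 members with at least 77% G+C in such a window, these 3 prompted the look, Atp5d followed them more mildly and Cox6a1 did not, so the members give no independent measure of a relation. Among all 738 tested known genes with at least 77%, the median log2 difference was -0.03 in sham 1 against the other sham pools and -0.37 in tMCAO 3 against the other tMCAO pools, and among those below 60% it was 0.01 and 0.16.

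**Figure D5:**
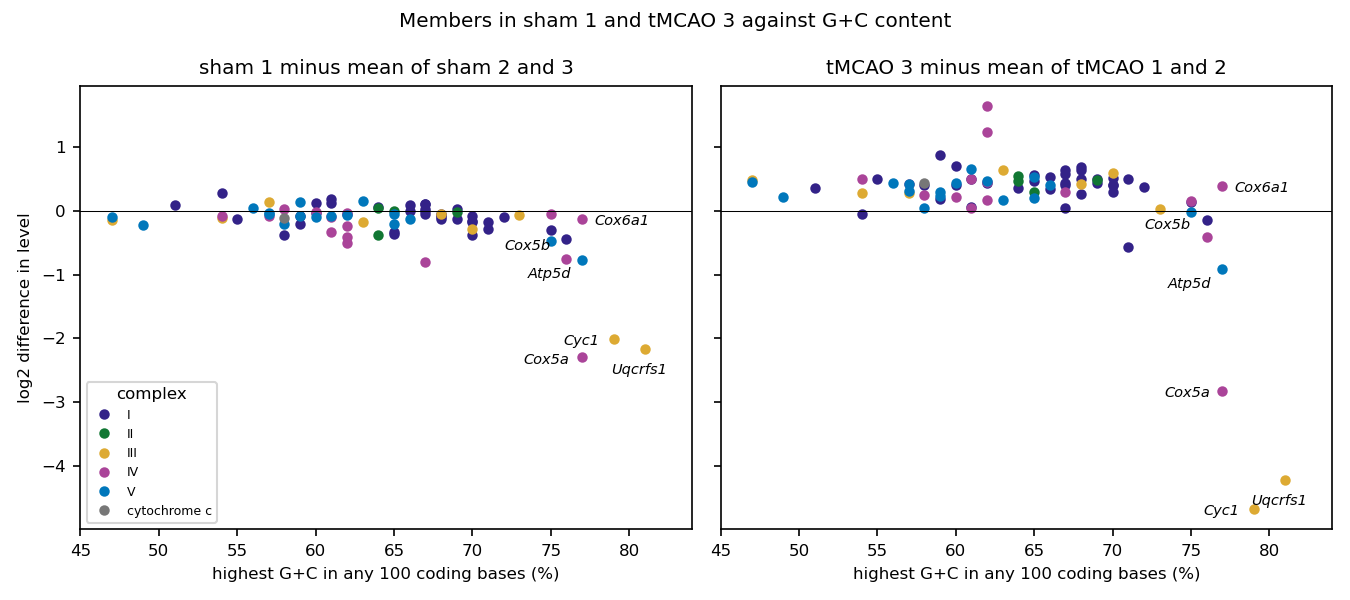
Log2 difference in level of each tested member between sham 1 and the other sham libraries (left) and between tMCAO 3 and the other tMCAO libraries (right), against the highest G+C percentage in any 100 coding bases. Cyc1, Uqcrfs1 and Cox5a lie far below the rest in both panels, Atp5d and Cox5b less so, and Cox6a1 at 77% G+C lies with the other members.

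The subunits encoded in mitochondrial DNA had far larger differences than their nuclear partners in these libraries. In complex I, 7 of 7 mitochondrial genes fell, with a median log2 fold change of -1.70 beside -0.22 for the nuclear subunits. The medians were -1.52 for the 1 gene of complex III, which fell, -1.50 for the 3 of complex IV, of which 2 fell, and -1.52 for the 2 of complex V, which both fell, beside nuclear medians of -0.07, -0.40 and -0.26. Among all tested genes and loci 8.96% were called lower, and among tested known genes 5.72%. A difference between the genomes was not tested. Both kinds of transcript were highest in sham 2, with mitochondrial sums of 23311, 33504 and 17887 CPM in sham and 8900, 8299 and 10361 CPM in tMCAO, but the groups did not overlap for the mitochondrial sum. In sham, the mitochondrial sums had the pool order of the choroid plexus, astrocyte, oligodendrocyte, neuron and erythroid sums, whose means were lower in tMCAO. The pericyte and monocyte sums shared that order, with higher means in tMCAO. The part of these cells in the mitochondrial levels was not tested.

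For genes that build or serve the chain, the background is 18.1% called among all tested genes and loci and 17.1% among tested known genes. The lists of 7 and 8 genes are too short to be set against these shares. Of 52 assembly factors of the complexes, 44 were tested and 0 passed, with a median of -0.07. Of 21 tested genes of the protein import machinery, 1 fell: Tomm7, a small subunit of the outer membrane translocase, went from 474 ± 19.0 to 332 ± 45.7 CPM (-0.63 ± 0.16, edgeR adjusted p = 0.0172). Of 7 porins, carriers and uncoupling proteins, 1 rose: Ucp2, an inner membrane carrier of the uncoupling protein family, went from 207 ± 45.9 to 370 ± 37.5 CPM (0.73 ± 0.18, edgeR adjusted p = 0.0126).

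Of 8 tested regulators of mitochondrial biogenesis, 1 rose: Hcfc1, a transcriptional cofactor, went from 14.3 ± 1.71 to 28.1 ± 6.08 CPM (0.86 ± 0.24, edgeR adjusted p = 0.0256). Nrf1, nuclear respiratory factor 1, had 7.06 ± 1.32 and 12.5 ± 3.03 CPM (0.70 ± 0.32, adjusted p = 0.146), and Gabpa, the DNA-binding subunit of the factor also called NRF-2, 31.5 ± 1.15 and 27.0 ± 8.25 CPM (-0.34 ± 0.23, adjusted p = 0.332). Genes linked to the chain but outside the naming pattern (Ndufab1, Usmg5 and Atpif1) gave 0 calls among 3 tested. Ndufab1, of complex I, had 5.90, 83.6 and 64.6 CPM in sham and 87.7, 63.1 and 5.86 CPM in tMCAO (-0.14 ± 1.24). As for Cyc1, sham 1 and tMCAO 3 were low in their group, and no difference could be detected.

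Both of these factors are known to bind promoters of respiratory chain genes. RefSeq promoter windows, 250 bases before to 50 after the start, could be matched to 67 of the 86 member symbols. The core of the NRF1 motif, spelled GCGCA, any base and then GCGC, on either strand, was in 16 of the 67 (23.9%), against 4.78% of all 27025 promoters and 12.1% of those of tested known genes. The letters CCGGAAG of the GABP motif, also on either strand, were in 15 (22.4%), against 9.12% and 21.4%. Among the called genes, Ndufa8 held the NRF1 letters and Uqcrh the GABP letters. Ndufa10 and Cox7a2l held neither, and Cox6a2 had no matched window. As examples with a match, the 250 bases before the start of Ndufa8 and Uqcrh are printed on the strand of the gene (RefSeq, GRCm38.p6). The motif letters are in capitals, NRF1 in the former and GABP in the latter.
Ndufa8, chr2:36049339-36049588, minus strand: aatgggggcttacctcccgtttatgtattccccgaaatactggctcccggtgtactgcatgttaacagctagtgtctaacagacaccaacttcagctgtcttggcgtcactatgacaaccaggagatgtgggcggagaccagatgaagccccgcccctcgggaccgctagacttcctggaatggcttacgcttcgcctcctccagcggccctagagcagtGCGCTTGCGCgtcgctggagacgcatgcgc
Uqcrh, chr4:116075071-116075320, minus strand: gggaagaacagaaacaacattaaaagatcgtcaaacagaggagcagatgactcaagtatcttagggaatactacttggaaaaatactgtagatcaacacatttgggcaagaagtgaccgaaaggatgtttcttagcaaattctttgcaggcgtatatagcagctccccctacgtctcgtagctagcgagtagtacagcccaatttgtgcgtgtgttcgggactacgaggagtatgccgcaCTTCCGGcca
A match is a description of these letters, and binding was not measured.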

How the data were processed

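RNA of pooled brain microglia was extracted with TRIzol and made into PCR-based nanopore cDNA libraries, per the labels' protocols, and minimap2 is named in the submitters' processing notes. Its version, the annotation and genome build, how reads were counted and whether strand was used are not stated in the sources used here. The authors deposited raw read counts per gene and CPM (counts scaled by the library total), per the file headers, and the deposited CPM differed from values recomputed from the counts by at most 4.87e-06. In the table, 12 lines without values were left out.

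All genes and loci were tested together with edgeR 4.0.16 (R 4.3.3): filterByExpr (minimum count 10, minimum total 15), TMM scaling, robust dispersions and the quasi-likelihood test with the group as the only term. The 13127 that passed the filter were tested, a Benjamini-Hochberg adjusted p under 0.05 was called, and the biological coefficient of variation was 22.6%. Members were read from that fit. Each SE was derived as the absolute log2 fold change divided by the square root of the test's F statistic. Levels are CPM by library totals, while log2 fold changes use TMM, so the sign of a small difference can differ between them. DESeq2 1.42.0, limma voom (limma 3.58.1), other scalings and filters, and fits without each library were alternatives, and the code was tested on simulated data.

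The members, gene lists and rule for named genes were chosen with earlier results of these data known. Named were every called member, the complex II genes, Cyc1 and Cycs, and in the other complexes the gene with the most counts and the 2 largest rises and 2 largest falls at an average log2 CPM of at least 4. Cox4i2, Ndufa4l2 and Cox7a2l were also named by that rule. Values of 1 further gene chosen this way are not reported here. Other members were named after their values were seen. Coding sequences were those of 1 transcript a gene in GENCODE M21. Counts of replicates differed by a chi-square of 4.64 to 9.02 per degree of freedom, so no pair was 1 library deposited again. The labels name no preparation batch, and p-values rest on the spread among the pools of a group, part of which may be technical. Reads of processed pseudogenes, which many of these genes have, and of overlapping genes such as Eef1b2 at Ndufs1 could not be told apart. Reads were amplified without molecular identifiers and are not independent molecules.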

Additional observations from a re-analysis of the deposited data

How the results depend on the processing

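The number of members called lower, 4 as reported, was 2 with DESeq2, 2 with the replicate block, 1 with library totals, 6 with upper-quartile factors and 7 when only known genes were tested, and it ran from 1 to 13 with a library left out, the highest without tMCAO 3. Without both sham 1 and tMCAO 3 it was 9. The number called higher was 1 throughout, except 0 with at least 10 counts required in every library, where Cox6a2 was not tested. The count over all genes, 2380, was 4039 with no filter on low counts, 1493 with known genes only, 1662 with the replicate block, 1604 with at least 10 counts in every library, 1695 with DESeq2, and 1254 to 2590 with a library left out. With the replicate block the calls of Uqcrh and Cox7a2l were lost (edgeR adjusted p = 0.0983 and 0.0737, against 0.0183 to 0.145 and 0.0146 to 0.136 over their alternatives). Replicate numbers did not pair the samples (correlations of deviations -0.21, 0.02 and -0.17).

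Library totals put 63.2% of all calls higher and upper-quartile factors 42.2%, against 50.6% as reported. The median of complex I was -0.46 without both sham 1 and tMCAO 3. Over all alternatives the medians ran from -0.46 to -0.11 for complex I, -0.16 to 0.11 for complex II, -0.43 to 0.04 for complex III, -0.50 to -0.17 for complex IV and -0.46 to -0.10 for complex V, so those of complexes II and III had no stable sign.

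The sign turned for Cyc1 with library totals (0.12), with no filter (0.044) and with libraries left out (-0.51 to 0.54, with 0.43 without sham 2, 0.05 without sham 3 and 0.09 without both sham 1 and tMCAO 3). With libraries left out it also turned for Cox5b (-0.060 to 0.59), Sdha (-0.030 to 0.31) and Sdhb (-0.027 to 0.30). The cause was not tested. Of 380 values of single genes under alternatives, 339 kept their direction and side of the threshold, 23 lost a call and 7 gained one. Depth limits Cox4i2, Ndufa4l2 and the restricted isoforms, with few counts each.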

Other observations

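Members with a shorter coding sequence tended to have the more negative values, while transcript length showed this less. Across the 82 tested members, the rank correlation of coding length with the log2 fold change was 0.40, beside 0.16 across 8512 tested known genes, a description across genes that share libraries. For transcript length it was 0.19 and 0.05. Coding length was also related to the difference of tMCAO 3 from the other tMCAO libraries (-0.40 across members and -0.20 across known genes). The relation was looked for after the values were seen, and what it reflects was not tested.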
